A study of Mus musculus with 6 samples.

Results

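Cytosolic ribosomal proteins are the protein parts of the ribosome that translates nuclear mRNAs. The 86 genes described here were taken from a gene count table of 52636 genes by symbol: protein-coding genes whose symbol begins with Rpl or Rps and a digit, together with Rplp0, Rplp1, Rplp2, Rpsa and Fau, leaving out the ribosomal S6 kinases, Rps19bp1 and symbols marked as pseudogenes. Of these, 52 were counted as large subunit genes (the stalk genes included) and 34 as small subunit genes (Rpsa and Fau included). The rule uses symbols and gene type, not measured values.

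The ribosome is built from a large and a small subunit, and each subunit carries 1 copy of most of its proteins on a core of ribosomal RNA. The mRNAs of these proteins belong to the most abundant in most cells, and many of them begin with a stretch of pyrimidines, the terminal oligopyrimidine (TOP) tract, through which their translation follows mTOR signalling and the binding protein LARP1. Their synthesis is matched to that of ribosomal RNA, and cells that make the proteins out of balance can stabilise p53.

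Bulk RNA sequencing of thoracic aorta was performed on 6 libraries. The 4 WT libraries came from untreated C57BL/6J mice, and the 2 KO libraries from mice carrying Tgfbr1f/f, Tgfbr2f/f, Myh11-CreERT2 and mT/mG (Tgfbr1/2iSMCKO), in which a tamoxifen-activated Cre driven by the Myh11 promoter recombines both floxed TGF-β receptor genes in smooth muscle cells (SMCs) and switches the mT/mG reporter from tomato to GFP. At an age of 11 weeks, KO mice were given 2 mg of tamoxifen intraperitoneally on each of 5 days, while WT mice were given none, and aortas of both were taken at 12 weeks. The Cre transgene is carried on the Y chromosome, so KO mice were male. The comparison therefore asks how ribosomal protein transcripts differ shortly after receptor deletion, but tamoxifen, the Cre driver, the reporter and the receptor deletion all differ between the groups and cannot be told apart, and whole aorta also holds cells that do not express the Cre. Libraries are named WT-1 to WT-4 and KO-1 and KO-2 in the order of the table's columns, whose codes show the group and not which labelled mouse a column holds.

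Total counts ran from 19650983 to 28860598 per library. Tgfbr1 and Tgfbr2 counts over the whole gene overlapped between the groups (Tgfbr1, 3858 to 5420 normalised counts in WT and 5780 and 4568 in KO), and counts summed over a whole gene do not check a deletion of part of it. SMC markers were abundant in every library: the 6 markers (Myh11, Acta2, Tagln, Cnn1, Smtn, Lmod1) summed to 878300 to 1038000 normalised counts in WT and to 832800 and 992600 in KO. The sum hides differences between them. Tagln, Cnn1 and Smtn (3 of 6) were below all WT libraries in both KO libraries, as were 16.4% of all genes tested. Myh11 (1 of 6) was above all WT libraries in both. None of the 6 passed an adjusted p under 0.05 in DESeq2. Over all genes tested, 17.9% were above all WT libraries in both KO libraries, and 5.71% were higher in KO at an adjusted p under 0.05. Endothelial, macrophage and mesothelial markers (5 of 5 each), red blood cell markers (5 of 5) and fibroblast markers (4 of 5) were above all WT libraries in both KO libraries, with 4, 4, 5, 4 and 2 of them higher at an adjusted p under 0.05. Their sums were 10930 to 19850 normalised counts in WT and 28960 and 28120 in KO for endothelial, 5926 to 7218 and 10520 and 11500 for macrophage, 206.5 to 408.4 and 848.3 and 2208 for mesothelial, 859.3 to 5990 and 11080 and 61680 for red blood cell and 38420 to 42790 and 55620 and 52820 for fibroblast markers. Gm42418, a gene that overlaps a ribosomal RNA repeat, took 1.89 to 4.67% of the counts in WT and 0.692 and 0.445% in KO, so that it separated the groups. KO-2 differed further, with 11.7% of its counts in genes of the mitochondrial genome against 2.62 to 4.44% in the other libraries. It also held 11420 normalised counts of 5 brown adipocyte markers against 371.7 to 574.5 in WT and 714 in KO-1, and 37550 of 5 white adipocyte markers against 2517 to 4780 in WT and 5335 in KO-1. KO-1 held 26300 normalised counts of 7 cardiac muscle markers against 2924 to 4050 in WT and 4012 in KO-2. Ryr2 made up much of the WT sums, at 2291 to 2667 in WT and 1368 in KO-2. Of the 7 markers, 3 (Actc1, Tnnt2 and Tnni3) were above all WT libraries in both KO libraries. The part of these cell types, of Gm42418 and of the mitochondrial share in the ribosomal protein values was not tested. In whole tissue, fewer cells of a type and less RNA per cell cannot be told apart.

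Runs of pyrimidines near each start site can be read from the reference sequence. Such a run need not begin at the first base of the mRNA, as a TOP tract does. A window of 250 bases before to 50 bases after the annotated start was matched by symbol to RefSeq (GRCm38.p6) for 66 of the 86 members. An unbroken run of at least 10 C or T bases within 50 bases of the start was found on the strand of the gene in 45 of them (68.2%), against 20.6% of 27025 genes with a window. Where a symbol had several windows, the longest run was used. On the other strand such a run was found for 12.1% of the members and 17.9% of all genes. The windows below show 30 bases each, written 5′ to 3′ on the strand of the gene, with the longest run of C and T near the start in capitals. Rps19, Rpl13, Rplp2 and Rps10 are shown because they had some of the lowest KO to WT ratios, Rps24, Rps6 and Rpl35 because they had some of the highest, Fau as a member made as a fusion protein, and Rpl22l1 and Rpl3l as paralogs whose levels moved apart from those of the other members. No entry was matched for Rps20 or Rpl36.
Rps19 (chr7:24884622-24884651, + strand): accccgtcgTTCCCTTTCCCCTggctggca
Rpl13 (chr8:123102324-123102353, + strand): cgtgacgtcaCTTCCCTTTCgcctgatttt
Rplp2 (chr7:141447636-141447665, + strand): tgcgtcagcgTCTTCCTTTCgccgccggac
Rps10 (chr17:27635227-27635256, - strand): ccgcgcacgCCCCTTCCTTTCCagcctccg
Rps24 (chr14:24490710-24490739, + strand): gagcggTCCTCTTTTCCTCCTCTCCagctc
Rps6 (chr4:86857349-86857378, - strand): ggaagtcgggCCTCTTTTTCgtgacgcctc
Rpl35 (chr2:39005115-39005144, - strand): gccccgCCCTTTCCTCTTTCTCTCgaacca
Fau (chr19:6057937-6057966, + strand): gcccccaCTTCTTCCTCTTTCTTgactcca
Rpl22l1 (chr3:28805499-28805528, + strand): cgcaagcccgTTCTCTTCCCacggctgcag
Rpl3l (chr17:24727846-24727875, + strand): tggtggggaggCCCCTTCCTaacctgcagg

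The run was 19 bases long for Rps24, 18 for Rpl35, 16 for Fau, 13 for Rps19 and for Rps10, and 10 for Rpl13, Rplp2, Rps6 and Rpl22l1. Genes at both ends of the KO to WT order thus carried one. In Rpl3l, which encodes the ribosomal protein of heart and skeletal muscle, the longest run was 9 bases and fell short of the minimum. By the start that RefSeq gives, the runs of Rps19, Rps24 and Rpl13, which began at positions -45, -37 and -16, ended before it. The runs of the other shown members overlapped that start or followed it. Among the members with a window and a mean of at least 10 normalised counts, the median log2 fold change was -0.31 for the 45 with a run and -0.18 for the 18 without one, which is given as a description with no test.

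Ribosomal protein genes took up between 2 and 3% of all counts in each library. The share was 2.87% in WT-1 (95% Wilson interval 2.866 to 2.88%), 2.89% in WT-2 (2.884 to 2.897%), 2.58% in WT-3 (2.578 to 2.591%) and 2.33% in WT-4 (2.323 to 2.335%). It was 2.45% in KO-1 (2.445 to 2.456%) and 2.16% in KO-2 (2.157 to 2.17%). KO-2 had the lowest share of the 6 libraries, while KO-1 lay above WT-4, so that the groups overlapped. Total counts include the mitochondrial genome, which took 11.7% of the counts in KO-2. With mitochondrial and Gm42418 counts left out, the share was 3.16, 3.07, 2.76 and 2.48% in the WT libraries, in order. It was 2.55% in KO-1 and 2.46% in KO-2, so that KO-2 then lay just below WT-4. The KO mean was 2.31% ± 0.203 (SD, n = 2) and the WT mean 2.67% ± 0.267 (SD, n = 4), a difference of -0.362 percentage points with p = 0.267 in a two-sided exact permutation test over 15 arrangements, in which the smallest possible p is 0.133. Without KO-2 the difference was -0.219 and without KO-1 it was -0.506. The intervals cover counting error only and are far narrower than the spread between libraries.

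Gene by gene, transcripts of the cytosolic ribosome tended to be lower in KO aorta, and few of the differences passed the test. Of the 83 members with a mean of at least 10 normalised counts (counts divided by the size factor of the library), 73 had a log2 fold change below 0 and 10 above 0, with a median of -0.29, against 0.01 over the 17070 genes that received an adjusted p. In the DESeq2 Wald test, 4 members fell at an adjusted p under 0.05 (Rps20, Rpl36, Rps19 and Rpl13), where 4.69% of all genes tested were lower in KO, so that the 4 of 83 are a share close to the background. No member was higher at that threshold, where 5.71% of all genes were. At an unadjusted p under 0.05, 24 members were lower (10.3% of all genes tested), and Rpl3l, which received no adjusted p, was the only one higher (11.9%). With edgeR's quasi-likelihood test 1 member, Rps20, was lower (2.76% of all genes) and none higher (3.42%) at an adjusted p under 0.05. Past 2-fold, Rps20 alone was lower (2.1% of all genes) and no member was higher (3.54% of all genes). The count of 4 depended on single libraries, as did the background. It was 26 without KO-1 (8.42% of all genes), 7 without WT-3 (4.74%) or without WT-4 (4.61%), and 1, Rps20, without KO-2 (3.75%), WT-1 (3.52%) or WT-2 (3.18%). Of the 73 log2 fold changes below 0, between 65 and 73 were also below 0 in each of these fits. The other 3 members, Rpl3l, Rpl10l and Rpl39l, had means under 10 and received no adjusted p.

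**Figure D1:**
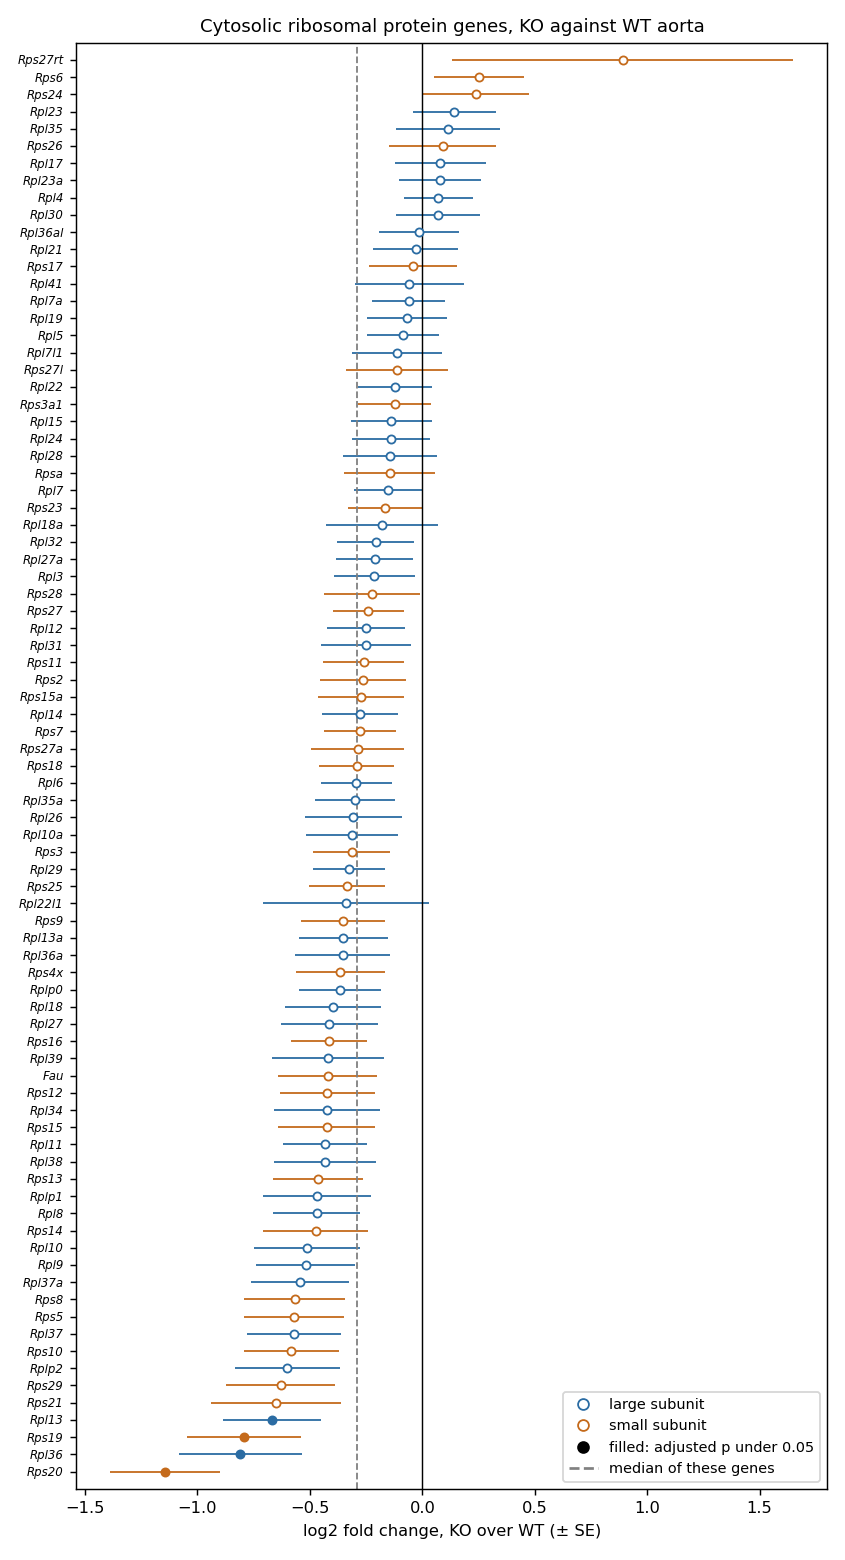
Log2 fold change of KO over WT with its standard error (horizontal axis) for the 83 ribosomal protein genes with a mean of at least 10 normalised counts, ordered by value, blue for large and orange for small subunit genes. Filled points passed an adjusted p under 0.05, the dashed line is the median of -0.29, and 73 of the points lie left of 0.

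The 2 KO libraries lay below all 4 WT libraries for 30 of the 83 members (16.4% of all genes tested) and above all 4 for none of the 83 members with a mean of at least 10 (17.9% of all genes). KO-1 taken alone lay below every WT library for 43 members (27.7% of all genes) and above for 1, Rpl7l1 (31.3% of all genes). KO-2 alone lay below for 50 members (32.3% of all genes) and above for 11 (32.8% of all genes). The 11 were Rpl4, Rpl17, Rpl23, Rpl23a, Rpl30, Rpl35, Rpl41, Rps6, Rps24, Rps26 and Rps27rt. Members above the WT range were thus found mostly in KO-2, while members below it were found in both KO libraries.

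The members also differed among the WT libraries. The median log2 ratio of the 83 members to the WT mean was 0.13 in WT-1, 0.09 in WT-2, -0.05 in WT-3 and -0.22 in WT-4, and it was -0.23 in KO-1 and -0.38 in KO-2. The SD of the 4 WT medians was 0.161, so that KO-1 lay next to WT-4 and KO-2 below it, while the median over all genes tested stayed within 0.015 of 0 in every library. Each WT library enters the WT mean, which draws its own ratios towards 0, and the KO libraries do not enter it. In KO-1 77 of the 83 members were below their WT mean, and in KO-2 65 were, as were 81 in WT-4.

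KO-1 and KO-2 reached their low medians in different ways. The middle 50% of the members spanned 0.228 on the log2 scale in KO-1, and 0.529 in KO-2, against 0.145 to 0.254 in the WT libraries. The WT spans are narrowed because each WT library enters the WT mean. Over the 4550 genes with a mean of at least 1000 normalised counts the span was 0.478 in KO-1 and 0.586 in KO-2. Ribosomal protein genes in KO-1 were therefore closer to each other than other abundant genes were, and in KO-2 they were spread almost as widely as those.

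**Figure D2:**
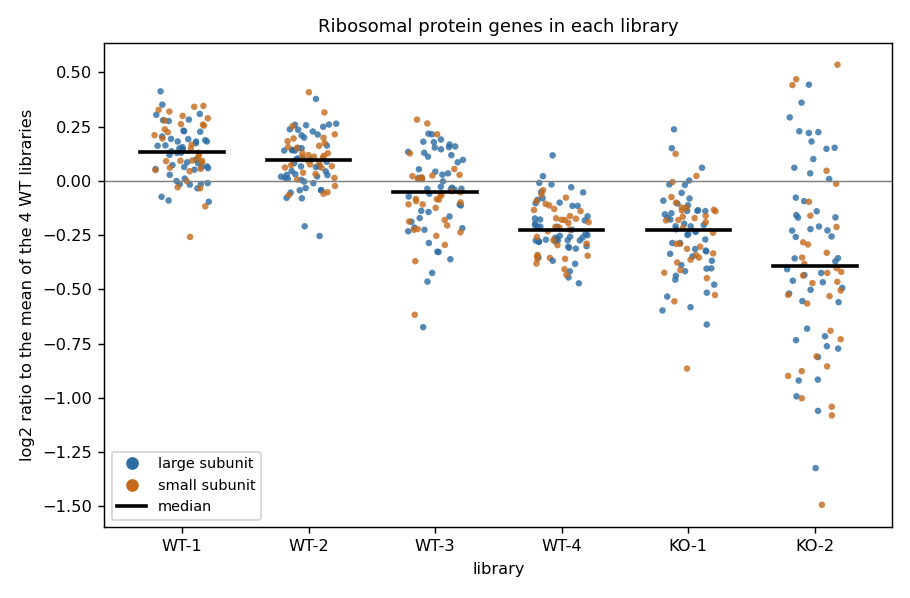
Log2 ratio of each ribosomal protein gene to the mean of the 4 WT libraries (vertical axis) in each library, with 1 point per gene for 82 genes (Rps27rt, with few counts, is left out) and a bar at the median. WT-4 and KO-1 sit at similar levels and KO-2 spreads from -1.49 (Rps20) to 0.54 (Rps24).

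Among large subunit genes, 49 had a mean of at least 10, and Rpl36 and Rpl13 fell. Their median log2 fold change was -0.28, with 43 below 0. Rpl36 encodes eL36, a small protein of the large subunit. Normalised counts were 5407, 4831, 3028 and 2983 in the WT libraries, in order, and 2686 and 1948 in the KO libraries. Both KO libraries were below all WT libraries, but KO-1 was near WT-3 and WT-4, which were themselves well below WT-1 and WT-2. The log2 fold change was -0.81 ± 0.27 (SE; adjusted p = 0.0341), and with edgeR the adjusted p was 0.135.

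Rpl13, which encodes eL13 and hosts a snoRNA within its gene, had 12800, 13300, 9699 and 9323 normalised counts in the WT libraries and 8229 and 5961 in the KO libraries. The groups did not overlap, and the WT libraries again formed a higher and a lower pair. The log2 fold change was -0.67 ± 0.22 (adjusted p = 0.0268; 0.0984 with edgeR). Without KO-2, without WT-1, without WT-2, with edgeR or scaled by total counts, Rpl36 and Rpl13 no longer passed, with an adjusted p of at most 0.383 for Rpl36 and 0.346 for Rpl13 over the 13 alternative settings. Rpl36 also missed the threshold without DESeq2's independent filtering and outlier cutoff (DESeq2 adjusted p = 0.0507). The log2 fold changes of Rpl36 and Rpl13 over the 13 settings ran from -1.06 to -0.58 and from -0.92 to -0.44, the weakest being those without KO-2.

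At the other end of the large subunit order were Rpl23, Rpl35, Rpl17 and Rpl23a. Rpl35 had 6521, 6326, 7033 and 5161 normalised counts in WT and 5035 and 8519 in KO. KO-1 was the lowest of the 6 libraries for this gene and KO-2 the highest. Rpl23 had 8104 to 9549 in WT, 7925 in KO-1 and 11010 in KO-2, again with one KO library at each end. Rpl17 (log2 fold change 0.08 ± 0.20), Rpl23a (0.08 ± 0.18), Rpl35 (0.11 ± 0.23) and Rpl23 (0.14 ± 0.19) did not pass the test, with adjusted p from 0.724 to 0.877.

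The stalk of the large subunit is made of Rplp0 and of the acidic proteins Rplp1 and Rplp2, and it recruits the elongation factors. All 3 genes had log2 fold changes below 0 and did not pass the test. Rplp2 had 5802, 5486, 3647 and 3803 normalised counts in WT and 3364 and 2816 in KO, with a log2 fold change of -0.60 ± 0.23 (adjusted p = 0.0802). Rplp0 had 13550 to 16860 in WT and 13230 and 10300 in KO (-0.37 ± 0.18, adjusted p = 0.211). For both genes the groups did not overlap. Rplp1 had 15290, 14110, 9557 and 8973 in WT and 8280 and 9037 in KO, so that KO-2 lay just above WT-4 (-0.47 ± 0.24, adjusted p = 0.228). As for Rpl36, the stalk genes were lower in WT-3 and WT-4 than in WT-1 and WT-2, with a median log2 ratio to the WT mean of 0.31, 0.23, -0.33 and -0.30 over the WT libraries, in order, and of -0.48 and -0.56 over the KO libraries.

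Among small subunit genes, 34 of 34 had a mean of at least 10, and Rps20 and Rps19 fell. The median log2 fold change was -0.30, with 30 below 0. Rps20 encodes uS10, a protein of the head of the small subunit (gene on chr4:3831334-3835665, - strand, GRCm38). It had 5779, 9173, 6414 and 6278 normalised counts in WT and 3795 and 2456 in KO. Both KO libraries were well below the lowest WT library, and WT-2 was higher than the other 3 WT libraries. The log2 fold change was -1.14 ± 0.24 (adjusted p = 0.000111), the lowest of the 83 members. With edgeR the adjusted p was 0.0366, and over the 13 alternative settings Rps20 stayed past the threshold, with adjusted p from 2.5e-06 to 0.0366 and log2 fold changes from -1.49 to -0.85. Its only annotated coding mRNA is 3706 bases long, its other annotated transcripts retain an intron and a snoRNA gene lies within its exons, so that reads of such transcripts may be included in its count.

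Rps19 encodes eS19, which is needed for the maturation of small subunit RNA and was the first gene linked to Diamond-Blackfan anaemia. It had 6919, 6600, 4290 and 4366 normalised counts in WT and 3772 and 2621 in KO. The groups did not overlap and the WT libraries formed 2 pairs. The log2 fold change was -0.79 ± 0.25 (adjusted p = 0.0225). The call rested on the same libraries as those of Rpl36 and Rpl13: without KO-2, WT-1 or WT-2, with total counts or with edgeR (0.112) the adjusted p was above 0.05, up to 0.35. The log2 fold change was -0.54 without KO-2 and stayed between -0.81 and -0.67 in the other fits in which the call was lost.

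Of the next small subunit genes in order, Rps21, Rps29 and Rps10 had log2 fold changes of -0.65 ± 0.29, -0.63 ± 0.24 and -0.58 ± 0.21 and adjusted p of 0.146, 0.0746 and 0.0543. Rps21 had 7608, 7469, 3913 and 5017 normalised counts in WT and 4736 and 2917 in KO, so that KO-1 lay between WT-3 and WT-4. For Rps29, a zinc-binding protein of the head, KO-1 at 6033 lay just above WT-4 at 6002. Rps10, which sits near the channel where mRNA enters, had 3853 to 5403 in WT and 3643 and 2573 in KO, without overlap, and its gene shares exon sequence with an antisense gene. Without KO-2 the log2 fold changes of Rps21, Rps29 and Rps10 were -0.33, -0.32 and -0.34, and without KO-1 all 3 passed, with adjusted p of 0.0273, 0.00214 and 0.00247. Rps21 also passed without WT-3 (0.0475) and Rps10 without WT-4 (0.0326).

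Rps6, the small subunit protein that S6 kinase phosphorylates, had 8158, 8533, 10630 and 8060 normalised counts in WT and 8815 and 12240 in KO. KO-1 was within the WT range and KO-2 above it, and the log2 fold change of 0.25 ± 0.20 did not pass (adjusted p = 0.51). Rps24 had 11170, 10280, 13030 and 8353 in WT and 9722 and 15530 in KO (0.24 ± 0.24, adjusted p = 0.621), and Rps26, at the site where mRNA leaves, had 5338 to 7279 in WT, 4830 in KO-1 and 8521 in KO-2 (0.09 ± 0.24, adjusted p = 0.882). In all 3 genes WT-3 was the highest WT library and KO-2 the highest of all. Without KO-2, the log2 fold change of Rps6 was 0.006, and those of Rps24 and Rps26 turned to -0.13 and -0.36. Rpsa, the protein also known as the laminin receptor precursor, had 8631 to 13140 in WT and 9195 and 11140 in KO, which overlapped (-0.14 ± 0.20, adjusted p = 0.75).

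**Figure D3:**
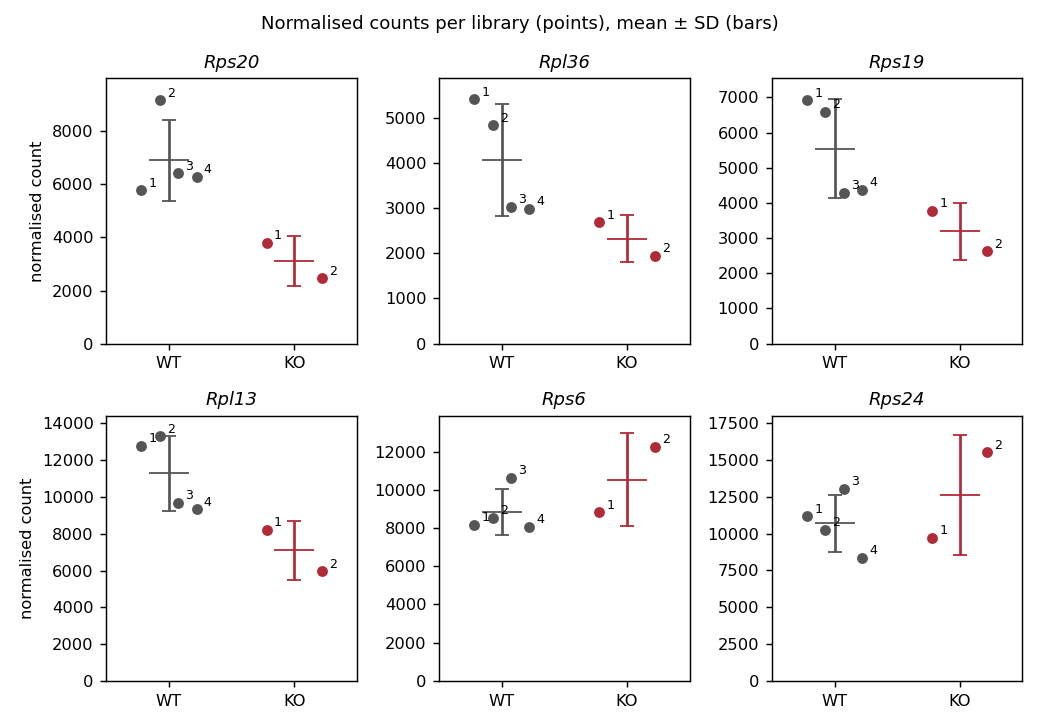
Normalised counts (vertical axis, from 0) of Rps20, Rpl36, Rps19 and Rpl13, the 4 members that fell, and of Rps6 and Rps24, with 1 numbered point per library and bars at the mean and SD of the 4 WT and 2 KO libraries. The KO points lie below the WT points in the first 4 panels, and KO-1 lies within the WT range in the last 2.

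Fau and Rps27a encode small subunit proteins made as fusions with a ubiquitin-like protein and with ubiquitin. Fau had 6983, 6509, 4756 and 4432 normalised counts in WT and nearly equal values of 4229 and 4241 in KO, below all WT libraries (-0.42 ± 0.22, adjusted p = 0.24). Rps27a had 4263 to 6363 in WT and 4780 and 3759 in KO, which overlapped (-0.29 ± 0.21, adjusted p = 0.449). Neither passed the test.

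Genes for second copies of ribosomal proteins, which can take the place of the usual protein in certain tissues, moved less evenly. Rpl22l1, the paralog of Rpl22, had 1370, 1605, 773.9 and 1190 normalised counts in WT, 1456 in KO-1 and 492.9 in KO-2. KO-1 was near the top of the WT range and KO-2 below it, so that the log2 fold change of -0.34 ± 0.37 (adjusted p = 0.661) describes neither, and without KO-2 it was 0.25. Rps27l, known as a p53-responsive paralog of Rps27, had 967.7 to 1306 in WT and 1244 and 862.9 in KO (-0.11 ± 0.23, adjusted p = 0.839). Rpl7l1 had 1666 to 1742 in WT, 1897 in KO-1 and 1265 in KO-2 (-0.11 ± 0.20, adjusted p = 0.817), and Rpl36al, a copy of Rpl36a, had 1344 to 1722 in WT and 1427 and 1586 in KO (-0.01 ± 0.18, adjusted p = 0.976). For Rpl22l1, Rps27l and Rpl7l1 alike, KO-1 was at or above the WT mean and KO-2 below all 4 WT libraries.

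Rpl3l had 0 counts in all 4 WT libraries and 10 and 9 counts in KO-1 and KO-2. Against a floor of 3 counts in each WT library (3.03 normalised counts), the KO mean of 9.32 normalised counts was 3.08-fold higher. This ratio leaves out the counting error of the KO values and is not a lower bound. DESeq2 gave Rpl3l no adjusted p because of its low mean, and its counts lie near the limit of detection at this depth. Without filters it did not pass, with an adjusted p of 0.11 in DESeq2 and 0.0948 in edgeR. Of the 7 cardiac muscle markers, Actc1, Tnnt2, Tnni3 and Mybpc3 were higher in KO. In KO-2, Tnnt2 at 1975, Actc1 at 270.4 and Tnni3 at 264.3 normalised counts were above all WT libraries, which reached 848.8, 223.4 and 203.2. Ryr2 at 1368 was below the WT range of 2291 to 2667. Myh6 at 113.1, Mybpc3 at 12.29 and Nppa at 8.604 in KO-2 lay within the WT range. The 7 markers summed to 4012 in KO-2, also within the WT range of 2924 to 4050. In KO-1, Tnnt2 was at 4445, Actc1 at 5951, Tnni3 at 1251 and Mybpc3 at 993.2. The 8 skeletal muscle markers summed to 672.3 in KO-1, 202.8 in KO-2 and 171.2 to 243.8 in WT, with Myh1 and Myh2 at 0 in every library and none past the test. The part of either in the Rpl3l counts was not tested.

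Rpl39l and Rpl10l, both known for their expression in testis, were at or near 0. Rpl10l had 0 counts in all 6 libraries, which allows up to 3 counts in each. Rpl39l had 5 counts in each of WT-2, WT-4 and KO-2 and 0 in the other 3. Rps27rt, a retrogene copy of Rps27, had 16.16 to 30.96 normalised counts in WT, 9.864 in KO-1 and 77.44 in KO-2, and its log2 fold change of 0.89 ± 0.76 (adjusted p = 0.542) turned to -1.23 without KO-2. It has 3 near-identical coding copies in the table, so that its count may include reads of another gene.

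The members differed widely in level as scaled here, by the length of 1 annotated mRNA for each gene. Some of these mRNAs are long beside their coding sequence, such as those of Rps24 (1613 bases, 399 coding) and Rpl27a (1158 and 444). The part of the choice of transcript in the spread was not tested. Scaled to the length of the mRNA, the WT mean had a median of 9640 normalised counts per kb over 82 members (leaving out Rps27rt), with the middle 50% between 6740 and 12900. The highest were Rps15 at 28170, Rplp1 at 24010 and Rps27 at 23570 normalised counts per kb, all short mRNAs of 345 to 500 bases. The order of these 3 does not exceed the spread of the WT libraries: the WT normalised counts of Rps15 were 14080 ± 2945 (SD, n = 4) and those of Rplp1 11980 ± 3181. The lowest were Rps27rt at 62.3, Rpl7l1 at 1305 and Rps20 at 1865, the last of which depends on the 3706-base transcript used for its length. The 4 paralogs Rpl7l1, Rpl22l1, Rps27l and Rpl36al ranged from 1305 to 2891 normalised counts per kb, below each member that is not a paralog other than Rps20.

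**Figure D4:**
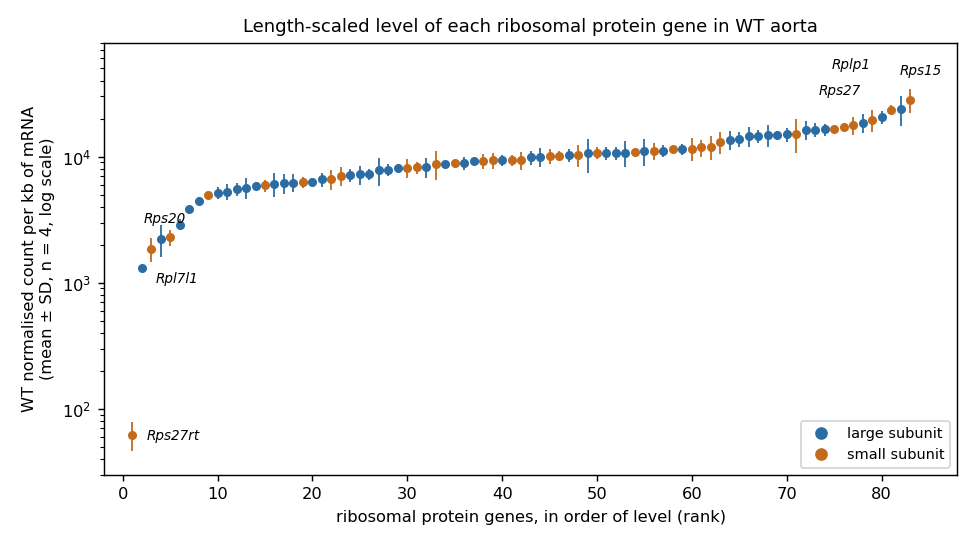
WT normalised count per kb of mRNA (vertical axis, log scale, mean ± SD of 4 libraries) for the 83 members with a mean of at least 10, in order of level (horizontal axis). The middle 50% of the genes without Rps27rt lie between 6740 and 12900, Rps27rt lies apart at 62.3 and Rps15 is highest at 28170.

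The spread within groups was compared gene by gene. The log2 ratio of KO-2 to KO-1 and that of each WT library to the mean of the other 3 WT libraries share no library, and they were set side by side over the 82 members with a mean of at least 1000 normalised counts. For WT-3 the 2 ratios had a Pearson correlation of 0.717 and a Spearman correlation of 0.709 across genes, for WT-2 -0.618 and -0.605, for WT-4 -0.314 and -0.299 and for WT-1 -0.133 and -0.175. The 4 WT ratios are not independent of each other, since each library enters all of them. Over the 4550 genes with such a mean the Pearson correlations were 0.218 for WT-3, -0.047 for WT-2, -0.307 for WT-4 and 0.093 for WT-1. These values are descriptions across genes that share their libraries, their depth and their base composition, and genes are not replicates.

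Genes at both ends of the WT-3 ratio were as follows. In WT-3 against the other WT libraries, Rps24 was 0.39 and Rps6 0.37 on the log2 scale, and in KO-2 against KO-1 they were 0.68 and 0.47. Rpl22l1 was -0.84 and Rps21 -0.78 in WT-3, and -1.56 and -0.70 in KO-2 against KO-1. Rps20, the member that fell most, was only -0.14 in WT-3 and -0.63 in KO-2 against KO-1. These genes were chosen after their values were seen. The likeness held for WT-3, was opposite for WT-2, and in WT-1 and WT-4 was no stronger than -0.314.

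**Figure D5:**
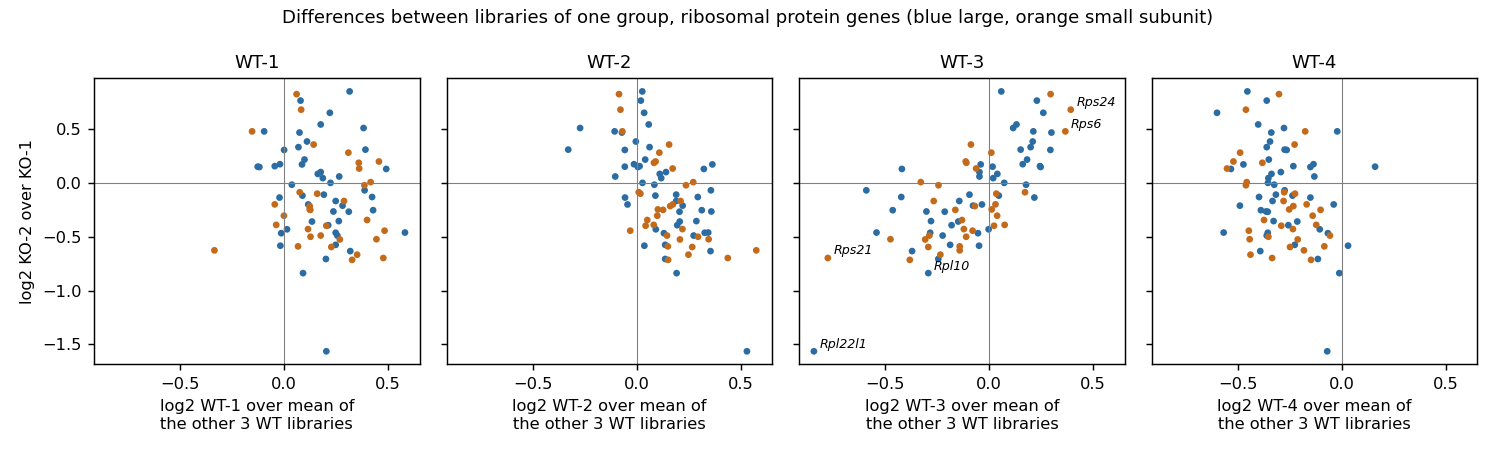
Log2 ratio of KO-2 to KO-1 (vertical axis) against the log2 ratio of each WT library to the mean of the other 3 (horizontal axis, 1 panel per WT library) for 82 ribosomal protein genes. In the WT-3 panel the points rise from Rpl22l1 at lower left to Rps24 and Rps6 at upper right, and in the WT-2 panel they fall.

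Simple features of the members went with parts of this variation. Over the 82 members, the ratio of KO-1 to the WT mean had a Spearman correlation of -0.51 with the GC content of the mRNA and 0.32 with its length, and the ratio of KO-2 had -0.16 and 0.14. The ratio of KO-2 to KO-1 had 0.01 with each. Members with more GC tended to be lower in KO-1, among them Rpl36 (60.8% GC) and Rps19 (59.6%). Rps20, the lowest member in KO-1, was given 41.3% GC, but this value depends on the 3706-base transcript used for it. The length and GC of the other members likewise depend on the transcript chosen for each. The part of base composition in the KO values was not tested.

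Most ribosomal protein genes have processed copies elsewhere in the genome, which can share reads with them. At 95% identity over at least 90% of the coding sequence, 80 of the 86 members had at least 1 near-identical copy among the genes of the table, with 54 for Rpl21, 27 for Rpl29, 26 for Rpl7a and 22 each for Rps2 and Rps12. The 540 copies together held 5588 to 8805 counts per library, 0.996 to 1.31% of the counts of the members. Of the 4 members that fell, Rps20 had 1 such copy, Rpl36 and Rps19 had 6 each and Rpl13 had 7. How many reads of copies were assigned to the members is unknown, since the deposited counts do not separate them. Exons of 19 members overlap a gene on the other strand, and reads of the 2 strands cannot be told apart where counting did not use strand.

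The 12 members on a list of genes mutated in Diamond-Blackfan anaemia, in which too little of 1 ribosomal protein impairs red cell formation, included 1 that fell (4.69% of all genes tested). Rps19 fell, the other 11 did not pass the test, 10 of 12 log2 fold changes were below 0, and the median was -0.29. Rps29 at -0.63 followed Rps19 at the low end, and Rps24 at 0.24 and Rps26 at 0.09 were at the high end.

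The other gene lists differed in their medians. The 78 genes of the mitochondrial ribosome, which translates mRNAs of the mitochondrial genome, had a median log2 fold change of -0.03. At an adjusted p under 0.05, 2 were higher (5.71% of all genes tested) and 2 lower (4.69%). Mrpl15 rose (0.83 ± 0.21, adjusted p = 0.00246) from 294.6 to 324.5 normalised counts in WT to 615.4 and 479.4 in KO, and Mrpl32 rose too (0.76 ± 0.24, adjusted p = 0.0173). Mrpl53 fell (-1.57 ± 0.48, adjusted p = 0.0144), with 131.6 to 305.4 in WT and 108.5 and 29.5 in KO, as did Mrps24 (-0.78 ± 0.26, adjusted p = 0.0336). These counts also depended on single libraries, with 7 higher without KO-1 (7.49% of all genes), and 1 higher (3.27%) and 0 lower without KO-2.

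Of 16 other translation genes with TOP mRNAs (elongation and initiation factors, Tpt1, Rack1, Pabpc1 and others), the median was 0.03. At an adjusted p under 0.05, 1 was higher (5.71% of all genes tested) and 0 lower (4.69%). Pabpc1, the poly(A)-binding protein of the cytoplasm, rose (0.77 ± 0.24, adjusted p = 0.0221): it had 8988 to 10810 normalised counts in WT, 11130 in KO-1 and 21630 in KO-2, so that most of the difference came from KO-2. Npm1, a nucleolar chaperone, had 0.63 ± 0.24 (adjusted p = 0.0661), and Eif3f and Eef1b2 were lowest at -0.38 and -0.34 (adjusted p = 0.158 and 0.224).

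The 8 host genes of snoRNAs with TOP transcripts were the other list with a low median, -0.38. All 8 log2 fold changes were below 0, and 5 had both KO libraries below all WT libraries (16.4% of all genes tested). None passed the DESeq2 test, and 2 were lower at an unadjusted p under 0.05 (10.3% of all genes tested). Snhg12 had 196.3 to 329.5 normalised counts in WT and 154.8 and 154.9 in KO (-0.76 ± 0.30, adjusted p = 0.0809), and Snhg6 181.7 to 204.7 in WT and 147.2 and 108.2 in KO (-0.58 ± 0.27, adjusted p = 0.175). Snhg5 (-0.12) and Epb41l4aos (-0.22) were the least different.

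Among 36 ribosome biogenesis genes, 1 was higher (5.71% of all genes tested), 1 was lower (4.69%) and the median was 0.04. Eif6, which keeps the large subunit from joining the small one too early, fell (-0.74 ± 0.20, adjusted p = 0.00526), from 859.8 to 1100 normalised counts in WT to 663.9 and 526.1 in KO. Myc, a transcription factor that drives ribosome production, rose (1.20 ± 0.38, adjusted p = 0.0194), from 51.93 to 110.5 in WT to 166.2 and 217.6 in KO. Rrp9 was -0.69 ± 0.25 (adjusted p = 0.0572). Of 19 genes of mTOR signalling and TOP mRNA control none passed DESeq2 in either direction, and the median was -0.08. At an unadjusted p under 0.05, 1 was higher (11.9% of all genes tested) and 2 lower (10.3%). Mtor was 0.32 ± 0.16 (adjusted p = 0.208), Ddit4 0.59 ± 0.38 (0.384), Akt1s1 -0.67 ± 0.33 (0.204) and Rps6kb2 -0.47 ± 0.24 (0.24).

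Of 12 p53 targets, 2 were higher (5.71% of all genes tested) and 1 was lower (4.69%). Cdkn1a, the cell cycle inhibitor p21, rose by 1.03 ± 0.20 on the log2 scale (adjusted p = 2.22e-05), from 774.8 to 1112 normalised counts in WT to 2154 and 1779 in KO. Ccng1, another p53 target of the cell cycle, rose from 2213 ± 237 (SD, n = 4) normalised counts in WT to 4494 and 4355 in KO (adjusted p = 3.33e-07). Bax fell (-0.76 ± 0.25, adjusted p = 0.0303) and Fas was -0.50 ± 0.21 (adjusted p = 0.122). The median of the list was 0.11.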

How the data were processed

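Libraries were prepared by the authors from total RNA of thoracic aorta with standard Illumina protocols. As their methods and the labels state, reads were trimmed, aligned with HISAT2 to the mouse genome (mm10, GRCm38) and assembled with StringTie on GENCODE annotation. The deposited table holds estimated counts per gene, as whole numbers; how the authors rounded them and whether strand was used are not given in the sources used here. Columns were assigned to groups from their codes, 4 to WT and 2 to KO. The study gives its groups as 4 WT and 2 KO mice, and libraries were treated as separate mice.

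The table was fitted whole with DESeq2 1.42.0 in R 4.3.3 (group as the only term, Wald test, Benjamini-Hochberg adjustment, alpha 0.05), after the study's methods, with edgeR 4.0.16 (quasi-likelihood) as an alternative beside other scalings, other filters and leaving out each library. DESeq2 and edgeR were tested on simulated data. Of the gene identifiers, 147 were not matched to GENCODE M21 and were kept by identifier. Lengths, GC and near-identical copies (blastn 2.17.0) were taken from GENCODE M21. A pseudocount of 0.5 was used in log2 ratios to the WT mean. Named genes were the 8 highest and 8 lowest log2 fold changes with a mean of at least 10, the stalk, fusion and paralog lists, Rpsa, Rps6, the 3 highest and 3 lowest per kb, and up to 4 per list. Other names (genes past the test, extremes of copies) were chosen after their values were seen. The members and lists were chosen with earlier results of these data known. 1 gene of these lists is not reported here.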

Additional observations from a re-analysis of the deposited data

How the results depend on the processing

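The median log2 fold change of the ribosomal protein genes stayed below 0 under every alternative run. The difference in share also stayed below 0, from -0.506 to -0.219 percentage points, and both moved by less than the SD of the WT libraries. Without DESeq2's independent filtering and outlier cutoff, 3 members were lower in KO at an adjusted p under 0.05, with Rpl36 lost. The count of members lower in KO at an adjusted p under 0.05 was 4 as reported, 1 with edgeR with or without a filter and 1 with total counts as scaling, and 1 to 26 when 1 library was left out: 1 without WT-1, WT-2 or KO-2, 7 without WT-3 or WT-4, and 26 without KO-1. Past 2-fold the count ran from 0 (without WT-2 or KO-2) to 5 (without KO-1), against 1. For mitochondrial ribosomal protein genes, 1 was higher with edgeR (both filters) and 1 to 7 when a library was left out. There were 0 lower with edgeR (both filters), 1 without DESeq2's independent filtering, 1 with total counts and 0 to 2 when a library was left out. With 1 KO library left, it is assumed to vary like the WT libraries. Of all genes tested, 2.1% were lower past 2-fold with all libraries kept. The same share was not counted with a library left out, so those counts past 2-fold have no background to be set against. At an adjusted p under 0.05 in either direction, 1616 of 16137 genes passed with total counts as scaling. With edgeR without a filter 931 of 25485 passed, against 1775 of 17070 as reported. 

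Single genes that changed sign were all short of the threshold as reported. Over the fits with 1 library left out, the log2 fold change ran from -1.23 (without KO-2) to 1.74 (without KO-1) for Rps27rt, and between the same libraries from -0.13 to 0.54 for Rps24, -0.10 to 0.36 for Rpl23, -0.30 to 0.45 for Rpl35, -0.365 to 0.445 for Rps26, -0.16 to 0.29 for Rpl17, -0.069 to 0.22 for Rpl23a and -0.080 to 0.063 for Rpl36al. The order was opposite, from without KO-1 to without KO-2, for Rpl7l1 (-0.43 to 0.16), Rpl22l1 (-1.32 to 0.25) and Rps27l (-0.40 to 0.14). Rpl39l ran from -4.12 without KO-2 to 1.33 without KO-1. Rpl36al was 0.023 with total counts and 0.00 with size factors from genes with a mean of at least 1000. The cause of these changes was not tested. No paired analysis was possible because the columns of the table do not carry the replicate numbers of the labels. With 2 KO libraries, small differences could not be resolved.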

Other observations

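Of 280 ribosomal protein pseudogenes with -ps in the symbol, 91 had no counts in any library, and together they held 1056 to 1776 counts per library, beside 425148 to 745859 counts in the members. Rps4l, annotated as a transcribed pseudogene, had 133.8 to 216.4 normalised counts in WT and 220.8 and 240.9 in KO, above all WT libraries (log2 fold change 0.35 ± 0.28, SE; DESeq2 adjusted p = 0.519).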
